A study of Mus musculus with 8 samples.

Results

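The loci of 6 genes of bile acid handling were examined for binding sites of Foxa2 and Hdac3 in mouse liver. The genes were Cyp7a1, Cyp8b1, Abcb11, Slc10a1, Nr0b2 and Nr1h4, and each locus was a window fixed by position in the mm9 build of the mouse genome. The rule names positions and no measured value, but the loci were chosen with earlier results of these data known. The windows were chr4:6140000-6250000 for Cyp7a1, chr9:121770000-121880000 for Cyp8b1, chr2:69030000-69230000 for Abcb11, chr12:82000000-82120000 for Slc10a1, chr4:133060000-133160000 for Nr0b2 and chr10:88860000-89050000 for Nr1h4, 830 kb in all. A site belonged to a locus when it overlapped the window by at least 1 bp. This held for 48 of the 28196 sites in 4 deposited lists: 15 of 6604 Foxa2 sites in young liver, 27 of 12834 Foxa2 sites in old liver, 3 of 5828 Hdac3 sites in young liver and 3 of 2930 Hdac3 sites in old liver.

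All liver came from wild type C57BL/6 mice, at 3 months (young) or 21 months (old), with no other treatment named in the labels. Chromatin immunoprecipitation followed by sequencing (ChIP-seq) was done on 2 libraries for each protein and age, and each pair of libraries was represented by 1 list of sites. No library had a list of its own and the read depth was unknown, so no value has a replicate error and no difference between the ages was tested. Intervals below are exact (Clopper-Pearson) 95% intervals that cover counting error only. Neighbouring sites in 1 window are not independent, and fewer cells of a type cannot be told apart from less binding per cell in whole liver.

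Bile acids are made from cholesterol in hepatocytes and are secreted into bile, and most return to the liver from the gut. The nuclear receptor FXR, encoded by Nr1h4, senses bile acids and induces Nr0b2, which encodes the corepressor SHP, and SHP lowers the expression of the synthetic enzymes. Foxa2 is a forkhead transcription factor of hepatocytes that opens chromatin at liver genes and is known to affect bile acid transport. Hdac3 is the histone deacetylase of the nuclear receptor corepressor complexes and restrains many genes of liver metabolism.

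No mm9 sequence or gene annotation was used here, so it is not known whether a site lay in a promoter, an exon, an intron or a neighbouring gene. By RefSeq gene order in GRCm38.p6, the nearest protein-coding genes on both sides are Ubxn2b and Sdcbp for Cyp7a1, Ackr2 and Gask1a for Cyp8b1, G6pc2 and Dhrs9 for Abcb11, Srsf5 and Smoc1 for Slc10a1, Nudc and Gpatch3 for Nr0b2, and Gas2l3 and Slc17a8 for Nr1h4. Some windows may hold parts of these neighbours.

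RefSeq promoters of GRCm38.p6 were matched by symbol for 5 of the 6 genes, with 6 promoters in all, and their 250 bases before the start were searched on both strands. The letters searched were the forkhead forms TGTTTAC or TGTTTGC or TATTTAC or TATTTGC, and the nuclear receptor hexamer AGGTCA, and no matches overlapped one another in these promoters. A forkhead form was present at Cyp8b1, 92 bases before the start, and at Abcb11, on the opposite strand and 46 bases before the start, and such letters occurred in 11.9% of 32851 promoters of this length. The hexamer was present at Abcb11, Nr1h4 and 1 of the 2 promoters of Slc10a1, and in 14.0% of all promoters. The Cyp8b1 and Abcb11 promoters are printed because their windows held the most Foxa2 sites in the deposited lists and none, respectively. Both genes are on the minus strand, the sequences run 5′ to 3′ along the gene, and capitals mark forkhead forms and, at Abcb11, also the hexamer read on the opposite strand (TGACCT). These positions belong to another build than the sites and cannot be set beside them. A match is no evidence of binding.
Cyp8b1 (GRCm38.p6 chr9:121916306-121916555): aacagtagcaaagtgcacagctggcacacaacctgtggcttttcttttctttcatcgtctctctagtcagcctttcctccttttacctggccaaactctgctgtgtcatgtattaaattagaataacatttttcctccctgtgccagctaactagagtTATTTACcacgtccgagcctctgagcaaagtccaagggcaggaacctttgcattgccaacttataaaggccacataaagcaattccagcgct
Abcb11 (GRCm38.p6 chr2:69342617-69342866): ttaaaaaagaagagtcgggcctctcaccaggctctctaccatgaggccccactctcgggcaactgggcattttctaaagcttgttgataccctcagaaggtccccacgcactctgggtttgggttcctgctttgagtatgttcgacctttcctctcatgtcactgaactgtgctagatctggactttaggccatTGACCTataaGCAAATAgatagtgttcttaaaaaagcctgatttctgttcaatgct

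Foxa2 sites were listed at 5 of the 6 loci at both ages, and at Abcb11 at neither. The 6 windows held 1.81 Foxa2 sites per 100 kb in young liver and 3.25 in old liver. Over the span of all listed sites the densities were 0.256 and 0.498 per 100 kb, so that the windows were 7.05 and 6.53 times as dense. As a background, 18.3% of consecutive 100 kb tiles of the genome held a young Foxa2 site and 27.2% held an old one. Longer tiles held sites more often, and 69.3% of 200 kb tiles had no young and 58.4% no old site. Of the 6 windows, which were 100 to 200 kb long, 5 held sites of each list. The only young Foxa2 site at Nr1h4 was 8 bp wide and was lost at a minimum width of 30 bp. Hdac3 had few sites. Each Hdac3 list had 0.361 sites per 100 kb in the windows, against 0.226 (young) and 0.114 (old) over the span of all sites, ratios of 1.60 and 3.18 that rest on 3 sites each. Each list had sites in 2 of the 6 windows, and 17.3% of tiles held a young and 9.24% an old Hdac3 site. The bars of site density show both proteins at each locus.

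**Figure D1:**
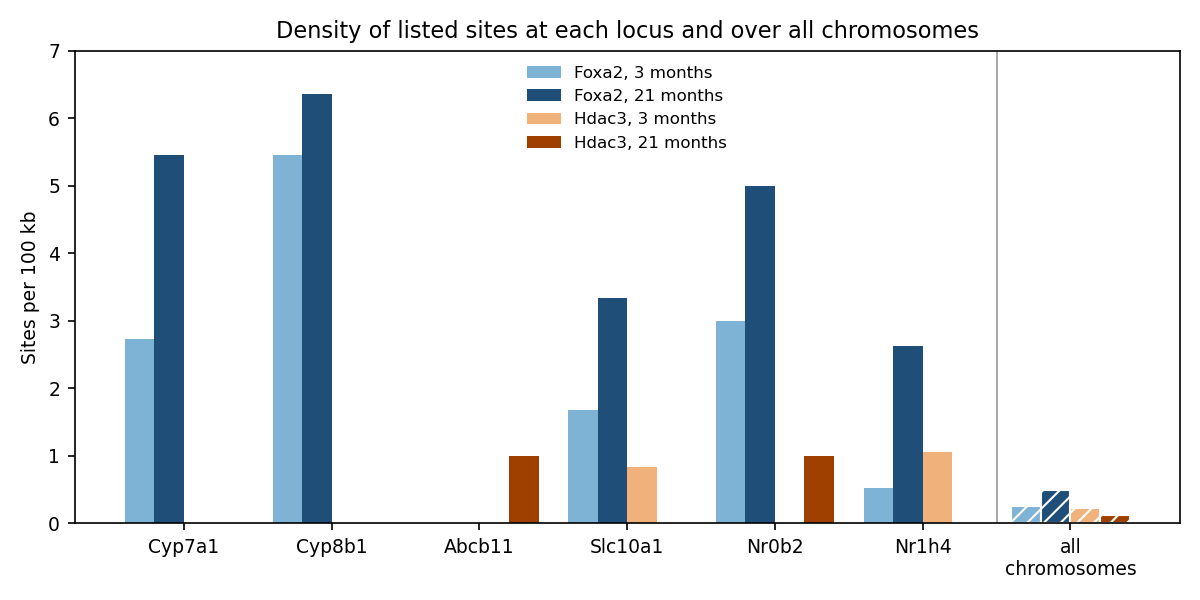
Sites per 100 kb (vertical axis) at each of the 6 loci and, hatched, over the span of all listed sites, for the 4 lists. Old Foxa2 reached 6.36 at Cyp8b1 and 0 at Abcb11, against 0.498 over all chromosomes.

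Foxa2 sites were more frequent inside the window than in either flank at Cyp7a1, Cyp8b1 and Nr0b2, but not at all loci. The stretches of equal length on the left of the windows held 2 young and 7 old Foxa2 sites, and those on the right held 4 and 15, against 15 and 27 inside. At Cyp7a1 neither flank held an old Foxa2 site and 6 lay in the window, while Cyp8b1 had 3 old sites in its right flank against 7 inside and Nr0b2 had 1 against 5. Abcb11 was the reverse in the old list only, with 2 old sites on the left, 4 on the right and none inside. The nearest old site on each side had a q of 0.118, near the end of its list. No young site lay in that window or its flanks. At Slc10a1 and Nr1h4 the 2 flanks differed. Slc10a1 had 5 old sites on the left and 1 on the right, against 4 inside. Nr1h4 had 0 on the left and 6 on the right, against 5 inside. In the young list Slc10a1 had 2 on the left, 1 on the right and 2 inside, and Nr1h4 had 0, 1 and 1.

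**Figure D2:**
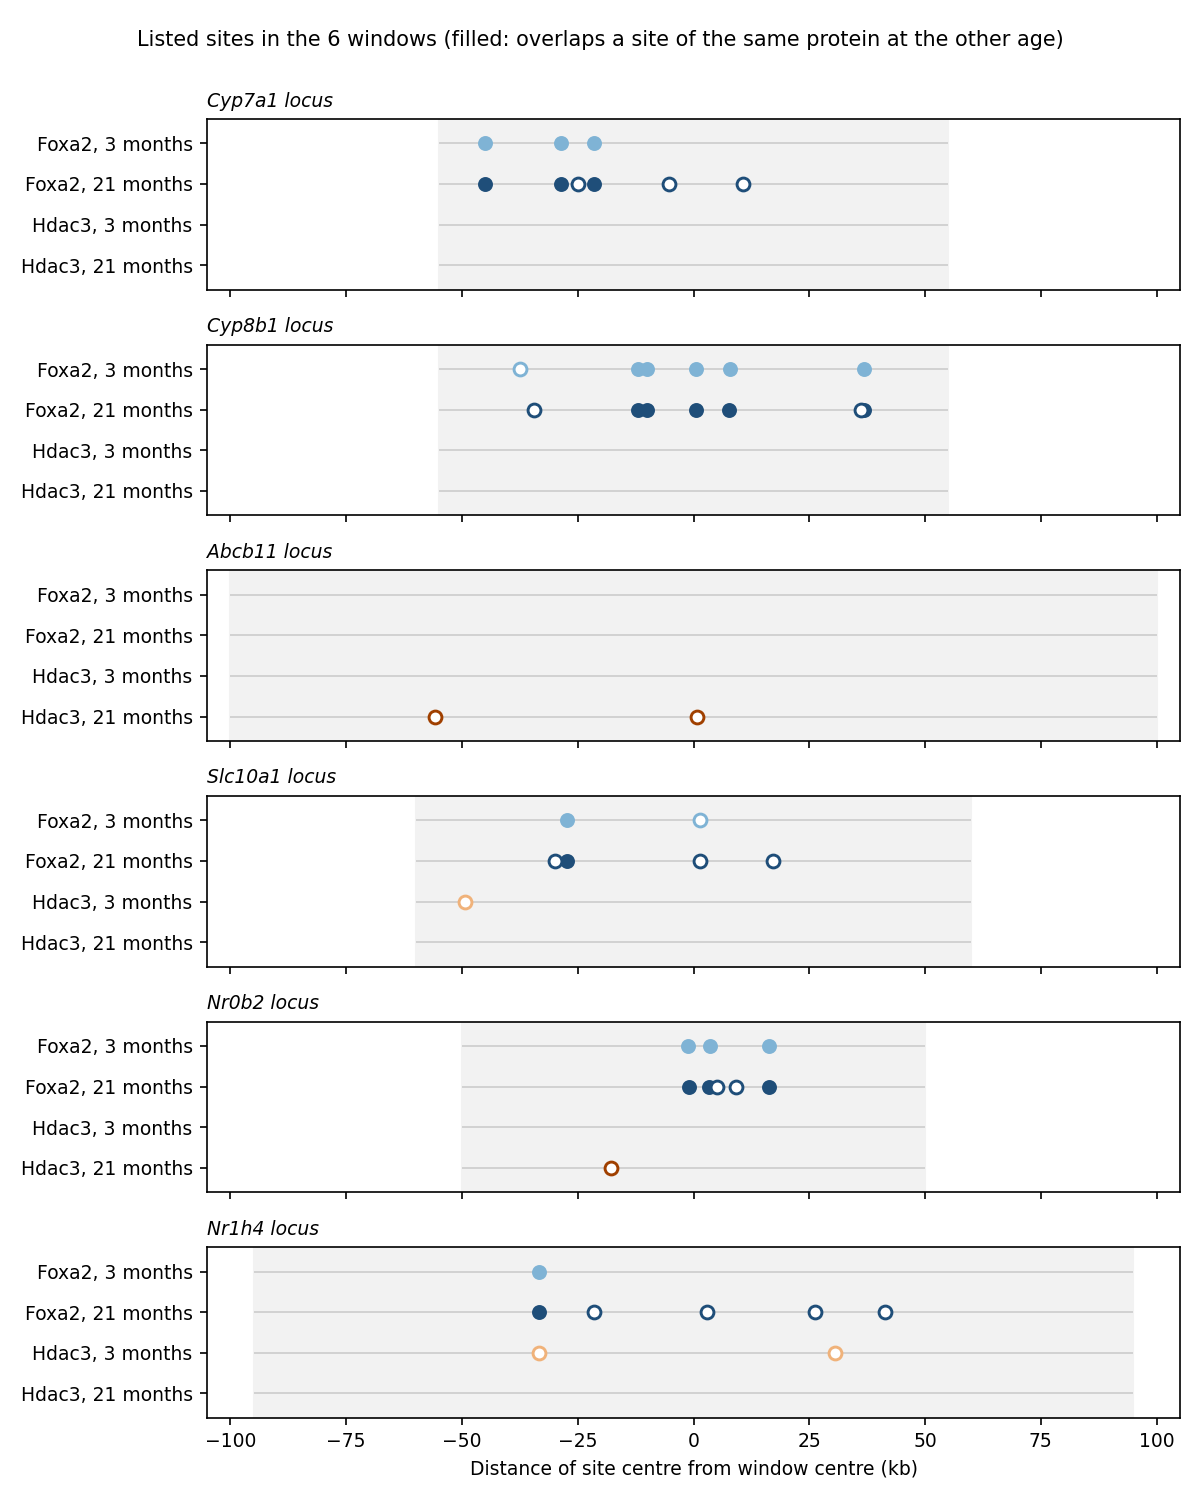
Position of each of the 48 sites as the distance of its centre from the window centre in kb (horizontal axis), with 1 row per list and shading for the window. Filled circles overlap a site of the same protein at the other age: 13 of 15 young and 13 of 27 old Foxa2 sites, and no Hdac3 site.

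Cyp7a1 encodes the rate-limiting enzyme of classical bile acid synthesis. Its window held 3 young and 6 old Foxa2 sites and no Hdac3 site at either age. The 3 young sites, at chr4:6149898-6149980 (q = 0.00578), chr4:6166386-6166480 (q = 0.0325) and chr4:6173332-6173481 (q = 7.7e-05), each lay within an old site. Those old sites were chr4:6149874-6150019 (q = 0.000778), chr4:6166287-6166498 (q = 3.92e-08) and chr4:6173326-6173486 (q = 2.09e-06). The order of the sites by q thus differed between the lists, because the middle one had the highest q of the locus in young liver and the lowest in old liver. Its authors' enrichment was 4.26 in the young list, where 8.59% of sites had the same value or less, and 37.6 in the old list, where 74.5% did. The other 3 old sites, at chr4:6170044-6170143, chr4:6189503-6189685 and chr4:6205692-6205791, lay 3.19, 16.0 and 32.2 kb from the nearest young site and had weaker q-values of 0.0458, 0.0197 and 0.0458. All 9 sites lay within 55.9 kb. Only 0.833% of genome tiles of the same length held as many old Foxa2 sites, and 1.62% as many young ones.

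Cyp8b1 encodes the sterol hydroxylase that is needed to make cholic acid. Its window held 6 young and 7 old Foxa2 sites, the largest number of the 6 loci in both lists as deposited, and no Hdac3 site. This order of the old list held at some stricter limits and not at others. With q of at most 0.1, Cyp8b1 had 7 old sites and Cyp7a1 6. With q of at most 0.01, Cyp8b1 had 4, and Cyp7a1 and Nr0b2 had 3 each. With q of at most 0.05, Cyp7a1 had 6 old sites and Cyp8b1 4, and in lists of equal length Cyp8b1, Cyp7a1 and Nr0b2 had 4 each. Of tiles as long as the window, 0.103% held at least 6 young and 0.436% at least 7 old Foxa2 sites. An old partner was listed for 5 of the young sites. The pair with the lowest q in both lists was chr9:121814804-121814912 in young liver (q = 0.00755, enrichment 6.35) and chr9:121814725-121814964 in old liver (q = 2.14e-06, enrichment 35.7). Enrichments describe sites within 1 list: 24.1% of young sites had that value or less, and 72.4% of old sites. A second pair lay just to the left of this pair, at chr9:121812927-121812967 (q = 0.0261) and chr9:121812730-121813066 (q = 0.000433). The other pairs lay to the right. They were chr9:121825461-121825534 with chr9:121825458-121825552, chr9:121832767-121832816 with chr9:121832668-121832836, and chr9:121861882-121861946 with chr9:121861809-121861977. Their q-values in young liver were 0.00877, 0.0133 and 0.00882, and in old liver 0.067, 0.000914 and 1.15e-05. The first of these was the 1 pair of the locus with a higher q in old than in young liver. The site of the young list alone was 6 bp wide (chr9:121787487-121787492, q = 0.0266), and the 2 sites of the old list alone had q-values of 0.0898 and 0.0944, with the second lying 715 bp from a young site.

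Abcb11 encodes the bile salt export pump of the canalicular membrane. No Foxa2 site of either age overlapped its 200 kb window, the longest of the 6. A window of this length without a site was common, since 69.3% of such tiles held no young and 58.4% no old Foxa2 site. The nearest Foxa2 site outside the window was an old one at chr2:69243977-69244017, 14.0 kb to the right, with a q of 0.118 near the end of its list. Old Hdac3 had 2 sites in the window and young Hdac3 none, and 3.38% of tiles of this length held at least 2 old Hdac3 sites. They were chr2:69074259-69074265, 7 bp wide with an enrichment of 311 and a q of 0.104, and chr2:69130761-69130781, 21 bp wide with an enrichment of 5.44 and a q of 0.103. They lay 103 and 113 kb from the nearest old Foxa2 site.

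Slc10a1 encodes NTCP, the sodium-dependent transporter that takes bile acids up from blood. Its window held the Foxa2 site with the lowest q of all 6 loci in both lists. This was chr12:82032515-82032663 in young liver (149 bp, enrichment 37.8, q = 2.97e-07, rank 93 of 6604) and chr12:82032467-82032687 in old liver (221 bp, enrichment 54.1, q = 5.87e-12, rank 109 of 12834). The remaining young site, chr12:82061346-82061377 (q = 0.0352), did not overlap the old site chr12:82061309-82061323 (q = 0.105), but it began 23 bp past the end of that site. The other old sites were chr12:82029993-82030051 (q = 0.0469) and chr12:82077136-82077276 (q = 0.00324). As many Foxa2 sites as here, 2 young and 4 old, were held by 5.80% and 3.75% of tiles of this length. One young Hdac3 site, chr12:82010662-82010696, had a q of 0.198, close to the limit of 0.2 of its list, and lay 21.8 kb from the nearest young Foxa2 site. A young Hdac3 site was present in 19.8% of tiles of this length.

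Nr0b2 encodes SHP, the corepressor induced by FXR. Its window held 3 young and 5 old Foxa2 sites, all within 17.6 kb, and each young site overlapped an old one. As many sites were held by 1.43% of tiles of this length for the young and by 1.41% for the old list. The widest Foxa2 site of the 6 loci was here, at chr4:133108727-133109360 in old liver (634 bp, q = 2.23e-09). In young liver the same place held chr4:133108813-133108835, a site of 23 bp (q = 0.0192). The other pairs were chr4:133113420-133113501 with chr4:133113381-133113480 (q = 0.0149 young and 0.0189 old) and chr4:133126229-133126327 with chr4:133126196-133126373 (q = 0.00151 and 1.18e-05). Between them lay 2 sites of the old list alone. One, chr4:133118997-133119405, was 409 bp wide with a q of 0.000525, the lowest among the old Foxa2 sites of the 6 loci that had no young partner. An old Hdac3 site at chr4:133092193-133092216 (24 bp, enrichment 7.29) lay 16.5 kb from the nearest Foxa2 site. Its q of 0.0583 was the lowest of the 6 Hdac3 sites, and it ranked 545 of 2930. An old Hdac3 site was present in 9.24% of tiles of this length.

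Nr1h4 encodes FXR, the bile acid receptor. Foxa2 had 1 site in young and 5 in old liver, and as many were held by 29.8% and 4.58% of tiles of this length. The young site, chr10:88921587-88921594, was 8 bp wide with an enrichment of 169 and a q of 0.0381, and it lay within the old site chr10:88921467-88921603 (137 bp, enrichment 9.06, q = 0.0197). Within their own lists, 91.0% of young and 10.8% of old sites had these enrichments or less. A young Hdac3 site, chr10:88921595-88921620 (26 bp, enrichment 89.4, q = 0.179), began at the next base after the young Foxa2 site and overlapped the old Foxa2 site by 9 bp. This was the only place in the 6 windows where the lists of both proteins overlapped. The other 4 old Foxa2 sites had no young partner and lay 11.9 to 74.8 kb from the young site. Among them chr10:88996352-88996511 had the lowest q of the locus (0.00143), and the q-values of the other 3 were 0.0175, 0.0651 and 0.102. The remaining Hdac3 site of the young list was chr10:88985465-88985481 (17 bp, enrichment 132, q = 0.179), 4.13 kb from an old and 63.9 kb from a young Foxa2 site. At least 2 young Hdac3 sites, as here, were held by 9.03% of tiles of this length.

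Most young Foxa2 sites of these loci were also listed in old liver. An old partner overlapped 13 of the 15, 86.7% (interval 59.5 to 98.3), where the full young list gave 40.7%. Of the 27 old sites 13 overlapped a young one, 48.1% (28.7 to 68.1), where the full old list gave 21.0%. The q-values of the sites bear on this comparison, because sites with low q were shared more often. Among the 50% of young sites with the lower q 11 of 12 members were shared, against 61.8% of all such sites, and among the remainder 2 of 3, against 19.7%. Among the 50% of old sites with the lower q 12 of 17 members were shared, against 37.7%, and among the remainder 1 of 10, against 4.24%. Members with a q of at most 0.01 made up 7 of 15 young and 13 of 27 old sites, where the full lists had 21.1% and 30.8%. Members were also wider than the full lists, with a median width of 74 against 40 bp in young and 141 against 100 bp in old liver. Whether width bears on the share of shared sites was not tested.

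**Figure D3:**
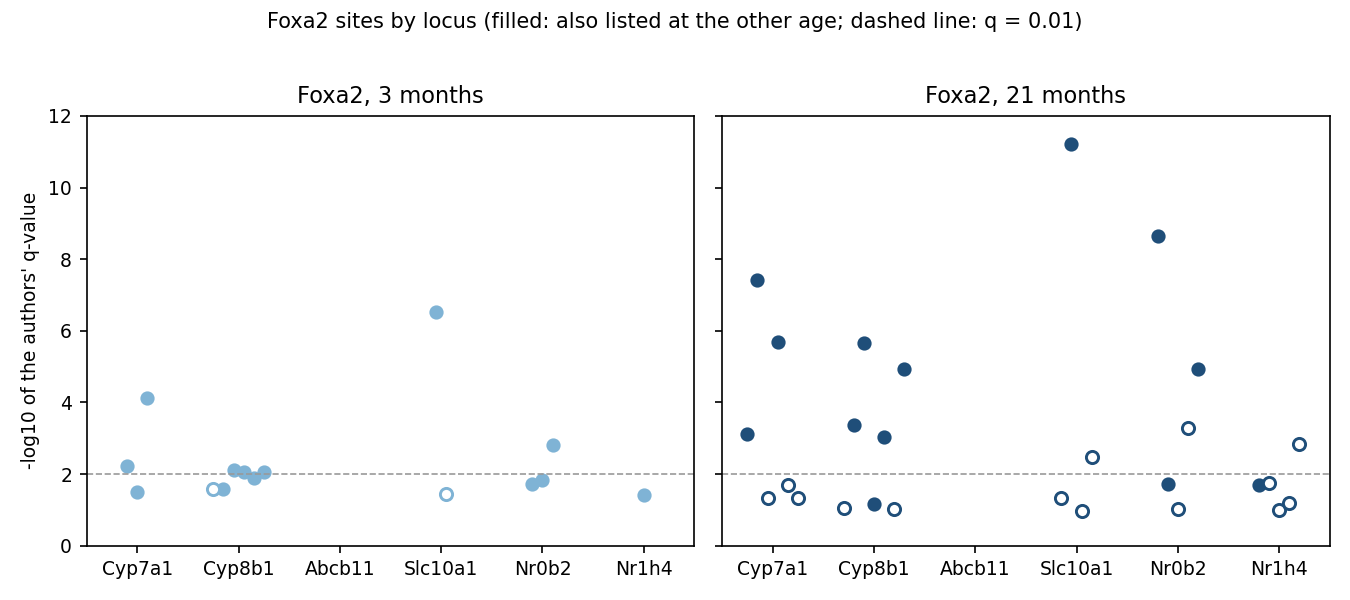
The −log10 of the authors' q-value (vertical axis) of each Foxa2 site by locus, with the young list on the left and the old list on the right. Filled circles are sites also listed at the other age and the dashed line is a q of 0.01; the highest points are the Slc10a1 sites, with q-values of 2.97e-07 and 5.87e-12.

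The old Foxa2 sites without a young partner had weaker q-values than those with one. The 14 sites of the old list alone had a median q of 0.0464, against 1.18e-05 for the 13 shared ones. A q of at most 0.01 was reached by 3 of these 14 sites and by 10 of the shared ones. This link of q with sharing was not particular to these loci. When the full old list was split at its middle rank by q, 37.7% of the sites with the lower q were shared. Of the remainder, 4.24% were shared. The median q and the share with a q of at most 0.01 were not computed for all old sites with or without a young partner. Of the 14, 2 lay within 1 kb of a young Foxa2 site and 7 within 10 kb, where 3.49% and 17.4% of the 10144 old sites without a young partner did. These shares are not a like background, because young Foxa2 sites were 7.05 times as dense in the windows as over all listed sites. When both Foxa2 lists were held to equal length by q, the windows had 15 young and 17 old sites. In these lists of equal length, Cyp8b1 had 6 young and 4 old sites, whereas Nr1h4 had 1 and 3, Cyp7a1 3 and 4, Nr0b2 3 and 4, and Slc10a1 2 and 2. The order of the ages at Cyp8b1 therefore turned with list length. With a q of at most 0.01 the windows had 7 young and 13 old sites.

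Shared Foxa2 sites were drawn wider in the old list. The old site was the wider one in 13 of 13 overlapping pairs, and the median ratio of old to young width was 2.20, with a range from 1.07 at Cyp7a1 to 27.6 at Nr0b2. This was the rule in the full lists too, where the old site was wider in 90.9% of 2700 pairs and the median ratio was 1.98. In 12 of the 13 pairs the young site lay wholly within the old one, against 75.5% of all pairs. The exception was the Nr0b2 pair at chr4:133113420-133113501, which extended past its partner on the right.

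**Figure D4:**
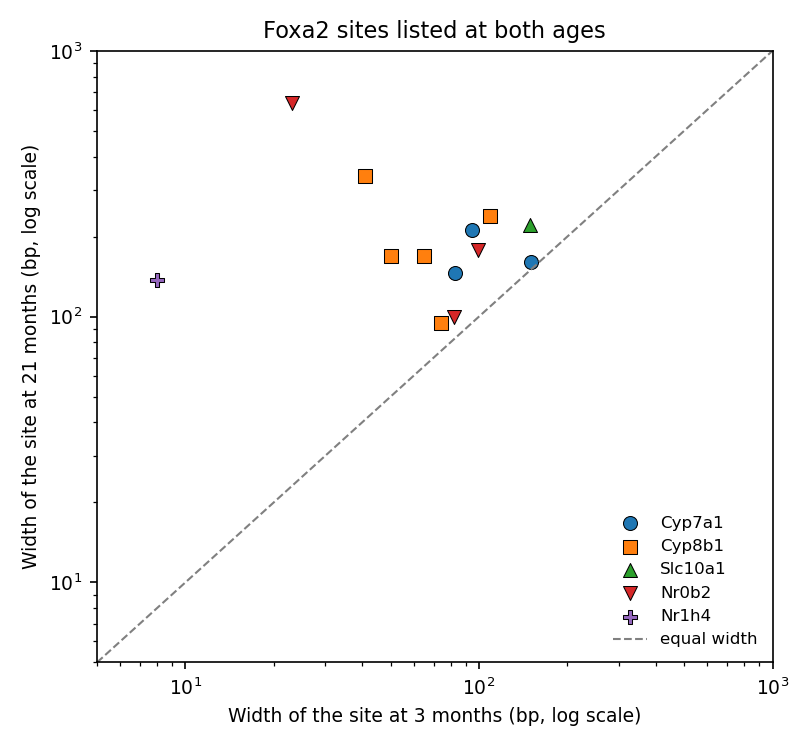
Width in bp of the 13 Foxa2 sites listed at both ages, young on the horizontal and old on the vertical axis, both on log scales, with a symbol per locus. All 13 points lie above the dashed line of equal width; the farthest from it are those of Nr0b2 (23 and 634 bp) and Nr1h4 (8 and 137 bp).

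No Foxa2 site of these loci overlapped a listed Hdac3 site of the same age. At Nr1h4, however, a young Hdac3 site began at the next base after the young Foxa2 site. None of the 15 young Foxa2 sites overlapped a young Hdac3 site, beside 3.23% in the full list. A limit of 3 counts for a count of 0 allows a share of up to 20%, and the exact upper bound is 21.8%. None of the 27 old Foxa2 sites overlapped an old Hdac3 site, beside 1.22% in the full list, where the limit of 3 counts allows up to 11.1% and the exact upper bound is 12.8%. The shares of the full lists lie within these bounds. The old Foxa2 site at Nr1h4 that overlapped a young Hdac3 site was 1 of 27, 3.70%, near the 2.05% of the full list. Within 10 kb of an Hdac3 site of the same age lay 1 of 15 young and 0 of 27 old Foxa2 sites, beside 13.7% and 4.43% in the full lists. Seen from Hdac3, 1 of 3 young and 0 of 3 old sites lay within 10 kb of a Foxa2 site of the same age, beside 13.7% and 20.5%.

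The 6 Hdac3 sites were narrow and none was listed at both ages. Of the 3 young sites 0 overlapped an old one, beside 2.71% in the full list, and of the 3 old sites 0 overlapped a young one, beside 5.56%. The nearest Hdac3 site of the other age was 166 kb away or farther. Widths ran from 17 to 35 bp in the young and from 7 to 24 bp in the old list, and 2 of 3 young and 3 of 3 old sites were under 30 bp, as were 56.3% and 58.5% of the full lists. All 3 young sites had a q of at least 0.179, and each ranked in the last part of its list, at 88.5% of its length or beyond. The old Abcb11 sites ranked at 80.8% and 81.3% of their list, and the old Nr0b2 site (q = 0.0583) at 18.6%. The locus of each Hdac3 site differed by age, with Slc10a1 and Nr1h4 in young liver and Abcb11 and Nr0b2 in old liver. This rests on 1 or 2 sites per locus, most of them late in their lists.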

How the data were processed

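Lists of sites were used as deposited, 1 for each protein and age, each standing for 2 of the 8 libraries. The submitters' processing notes name the tool BWA and the build mm9, with no version or settings. The peak caller, the control library, how libraries were combined and whether they came from separate animals are not stated in the labels. A site is given by its begin and end, a fold enrichment (a ratio made by the authors) and a q-value, per the file headers. The q-values deposited by the authors reach 0.12 for Foxa2 and 0.2 for Hdac3. Per the labels, chromatin came from snap-frozen liver.

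Width is end minus begin plus 1. Positions are printed as listed, and a gap is the difference between the facing ends. Sites were ranked by q with ties by enrichment, and enrichments and ranks describe sites within 1 list. Overlap needed at least 1 bp. Tiles of 100 kb, or of each window's length, ran from the first to the last listed site of each chromosome. The members and gene lists were chosen with earlier results of these data known. Named sites were those with the lowest q per list and locus, all Hdac3 sites and all overlapping sites, and the others named were chosen after their values were seen. A planned list of other bile acid genes was not used here, as it needs an mm9 annotation. Overlap counts equalled those of bedtools 2.31.1 for 12 ordered pairs of lists, and on simulated data 200 of 200 planted overlaps were found. Python 3.11.15 with pandas 2.3.3 and scipy 1.17.1 was used. Alternatives were stricter q limits, lists of equal length, longer and shorter windows, other overlap rules, site centres and a minimum width of 30 bp.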

Additional observations from a re-analysis of the deposited data

How the results depend on the processing

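No paired analysis was possible because each group has 1 list for both libraries, and for the same reason no library could be left out. The number of Foxa2 sites in the 6 windows (15 young, 27 old) went to 7 and 13 with q of at most 0.01, and the old number to 17 in lists of equal length. The young Hdac3 number (3) went to 0 with q of at most 0.1, 0.05 or 0.01 and in lists of equal length, and to 1 for sites at least 30 bp wide. The old Hdac3 number (3) went to 1 with q of at most 0.1 and to 0 with 0.05, with 0.01 and for sites at least 30 bp wide. Shared Foxa2 sites (13 of 15 young and 13 of 27 old) went to 6 of 7 young and 6 of 13 old with q of at most 0.01. When 50% of both sites had to overlap, they went to 6 of 15 young and 6 of 27 old. The shares of the full lists under these alternatives were not computed. With centres within 200 bp or edges within 500 bp, 1 young Foxa2 site had a young Hdac3 site, that of Nr1h4. The other 68 of 86 values stayed within 1.5 times the reported one, and many of these are counts of 0. Windows 20 kb longer or shorter moved none of these values further than that. Abcb11 had no Foxa2 site under these alternatives except in the longer windows, where it had 1 old one. Depth limits what the lists can show, and it is unknown.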

Other observations

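Outside the windows, the nearest young and the nearest old Foxa2 site overlapped on 2 of the 12 window sides. To the right of Slc10a1 a young site at chr12:82209712-82209792 (q = 0.0138) lay within an old one at chr12:82209697-82209796 (q = 0.0175), 89.7 kb past the window. To the left of Cyp8b1 a young site at chr9:121619991-121620038 (q = 0.0152) lay within an old one at chr9:121619886-121620067 (q = 1.94e-05), 150 kb before the window. On the other 10 sides they were separate sites. This tally is not a share of Foxa2 sites listed at both ages, because only the nearest site of each list was compared. A young site could count as separate and still have an old partner, where another old site lay nearer to the window. The tally cannot be set beside the 13 of 15 young sites shared inside the windows, or the 40.7% of the full young list. The young site nearest to the Cyp7a1 window, chr4:6274175-6274177, was 3 bp wide with an enrichment of 520 and lay 24.2 kb to its right.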
